A study of Equus caballus with 18 samples.

Results

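The glycolysis enzymes described here are 10 genes that the study placed under glycolysis in its heatmap of muscle function, out of 25239 genes in the deposited count table. The table lists Ensembl identifiers without names. Each enzyme was therefore found as the single gene whose counts equalled the printed ones in all 18 muscles, and no other gene came closer than 4 equal muscles. The study picked these genes after it had compared clusters of the same libraries, so their spread between muscles is no independent evidence.

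All 18 skeletal muscles were taken from 1 male Jeju horse, a breed of Jeju island, in the hot carcass after slaughter, and 1 library of rRNA-depleted RNA was sequenced per muscle without treatment. The tissue labels name only the muscle, and the muscles were placed in 5 anatomical groups by textbook anatomy. The proximal forelimb (n = 4) held the triceps brachii long head, biceps brachii, infraspinatus and supraspinatus, the girdle and neck (n = 4) held the rhomboideus, omohyoideus, trapezius and pectoralis (labelled Pectoralis major, while the study's map of the muscles names a Pectoralis ascendens, so which pectoral muscle it was is uncertain), and the distal limb extensors (n = 4) were the extensor digitorum communis, extensor carpi radialis, extensor digitorum longus and extensor digitorum lateralis. The proximal hindlimb (n = 5) held the semitendinosus, gluteus superficialis and the vertebral, middle and caudal parts of the biceps femoris, which are 3 parts of 1 muscle, and the longissimus was the only trunk muscle (n = 1). Since every library came from the same animal, the p-values below describe the spread between muscles, and parts of the biceps femoris, of this horse and not between horses.

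Glycolysis splits glucose into pyruvate in the cytosol and yields ATP without oxygen. Fast-twitch fibres, which shorten quickly and tire early, are known for high levels of its enzymes, whereas slow-twitch fibres rely more on mitochondria. Several steps have isoforms: PFKM and ALDOA are the muscle forms of phosphofructokinase and aldolase, PFKL is the form best known from liver and ALDOC that of brain, and PGAM2 and ENO3 are the muscle forms of phosphoglycerate mutase and enolase.

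In order of the pathway, the members were GPI (ENSECAG00000018093), which turns glucose 6-phosphate into fructose 6-phosphate, and PFKM (ENSECAG00000015087) and PFKL (ENSECAG00000017863), which add the next phosphate in the committed step. ALDOA (ENSECAG00000003121) and ALDOC (ENSECAG00000013037) cleave the sugar, and TPI1 (ENSECAG00000015581) interconverts the products. PGK1 (ENSECAG00000014984) makes ATP, PGAM2 (ENSECAG00000005539) moves the remaining phosphate, ENO3 (ENSECAG00000020400) removes water, and PKM (ENSECAG00000007644) makes the last ATP and pyruvate.

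Between 31395013 and 50508515 reads were counted on genes per library. The gene with the most reads took between 24.1% and 39.1% of a library, and TMM factors, which correct for such composition, ran from 0.81 to 1.44. The largest were those of the omohyoideus (1.44) and the gluteus superficialis (1.40), and the places of these muscles among the others moved where library totals were used in place of TMM. Levels are given in CPM, the count of a gene relative to the TMM-scaled library total, which compare 1 gene between muscles but not different genes, since no gene lengths were used. With 1 library per muscle, a level carries a 95% counting interval only, which covers neither sampling of the tissue nor library preparation. In bulk tissue, fewer fibres of a type and less RNA per fibre cannot be told apart.

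Most of the 10 enzymes rose and fell together from muscle to muscle. GPI, PFKM, ALDOA, TPI1, PGK1, PGAM2, ENO3 and PKM, 8 genes in all, shared the muscles at both ends of their order, and together they took from 0.401% of all reads in the trapezius to 2.45% in the biceps femoris vertebral part. The rhomboideus, trapezius, extensor digitorum communis and extensor digitorum lateralis were among the lowest 5 muscles for all 8 genes with either scaling. The omohyoideus joined them for 7 of 8 with TMM, with the biceps brachii in its place for TPI1, but with library totals only for ALDOA, ENO3 and PGAM2, with the infraspinatus in its place for the other 5 genes. The biceps femoris vertebral part and the extensor carpi radialis were among the highest 5 for all 8, and the longissimus and semitendinosus for 7 of 8. The middle of the order differed between the genes, since with TMM the gluteus superficialis lay anywhere from 5th to 13th and the extensor digitorum longus from 2nd to 10th. ALDOC and PFKL were highest in 4 of the muscles that were lowest for these 8.

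**Figure D1:**
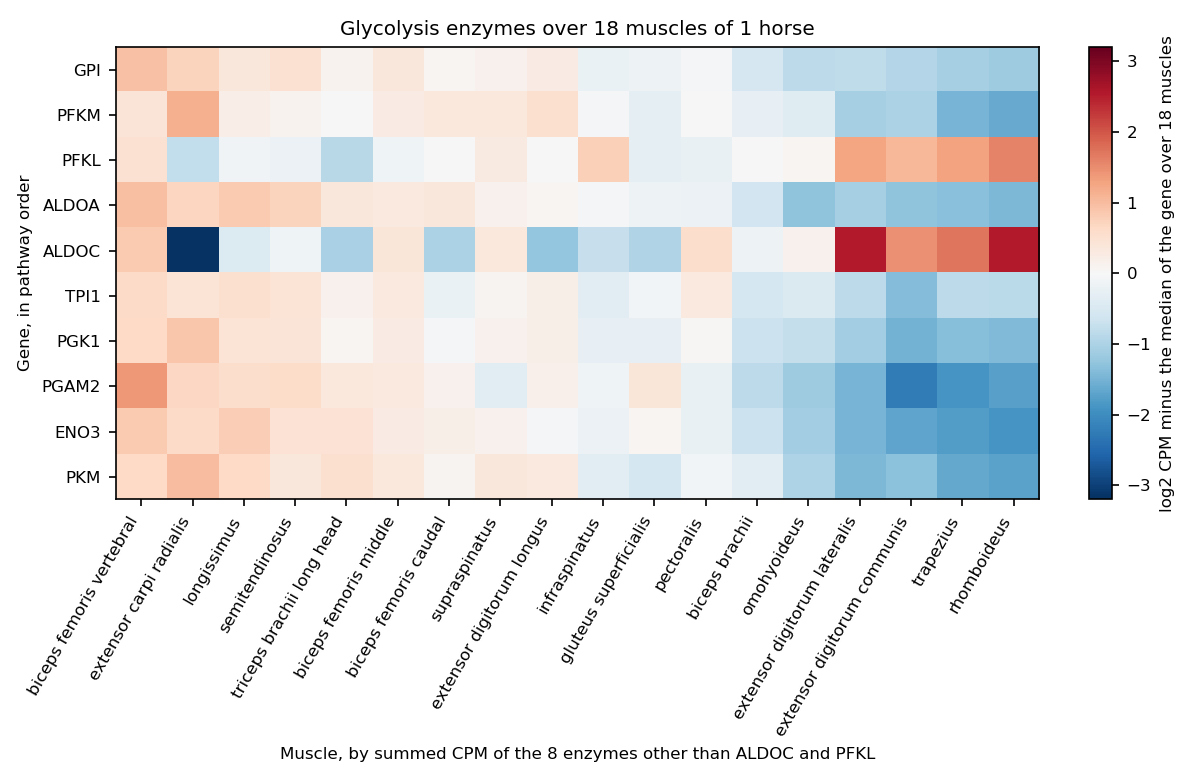
Level of the 10 glycolysis enzymes (vertical, in pathway order) in 18 muscles (horizontal, from the highest to the lowest summed CPM of the 8 enzymes other than ALDOC and PFKL). Colour gives the log2 CPM minus the median of that gene over all muscles. With this TMM scaling the 5 muscles on the right are the lowest for 7 of these 8 enzymes, and 4 of them are the highest for ALDOC and PFKL.

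GPI ranged from 157.7 CPM in the rhomboideus through a median of 349 CPM to 671 CPM in the biceps femoris vertebral part, a 4.25-fold range. Its 5 lowest muscles lay between 157.7 and 199.8 CPM, and the next one, the biceps brachii, stood at 241 CPM, although with library totals the omohyoideus (279) exceeded the infraspinatus (242). PFKM, the muscle isoform at the committed step, ranged from 290.4 CPM in the rhomboideus to 1955 CPM in the extensor carpi radialis, 6.73-fold. For PFKM the second place (the third with library totals) belonged to the extensor digitorum longus with 1259 CPM, a muscle that was 9th for ALDOA, and the omohyoideus with 673 CPM lay close to the gluteus superficialis with 706 CPM. The difference of PFKM between those last muscles was thus small beside its whole range.

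ALDOA, the muscle aldolase, stood at 8391 CPM in the triceps brachii, 4262 in the biceps brachii, 6179 in the infraspinatus and 7179 in the supraspinatus. In the proximal hindlimb it was at 10664 CPM in the semitendinosus, 5822 in the gluteus superficialis, and 12642, 7982 and 8255 in the vertebral, middle and caudal parts of the biceps femoris. These limb groups overlapped, with the semitendinosus and the vertebral part above every forelimb muscle with either scaling, and the longissimus was at 11587 CPM. The gluteus superficialis lay below 3 of 4 forelimb muscles with TMM, but with library totals (8168) above all 4. In the girdle and neck ALDOA was at 2400 CPM in the rhomboideus, 2634 in the omohyoideus, 2564 in the trapezius and 5654 in the pectoralis, and among the distal extensors at 2662 in the extensor digitorum communis, 10465 in the extensor carpi radialis, 6787 in the extensor digitorum longus and 3107 in the extensor digitorum lateralis. Within the girdle and neck, 3 muscles lay close together and the pectoralis apart from them, and the distal extensors fell into a high and a low pair.

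TPI1 had the narrowest range, 3.94-fold, from 73.5 CPM in the extensor digitorum communis to 289.3 CPM in the biceps femoris vertebral part, and PGK1 ran from 86.0 CPM in the extensor digitorum communis to 454.9 CPM in the extensor carpi radialis, 5.29-fold. For TPI1 the low muscles were not set apart, since the omohyoideus with 139 CPM exceeded the biceps brachii with 129.8 CPM. With TMM the gap was narrow for PGK1 too, with 147 CPM in the omohyoideus and 154 CPM in the biceps brachii. With this scaling the levels of both genes formed a gradient over the muscles. With library totals the lowest PGK1 levels, from 91.8 (trapezius) to 98.0 (rhomboideus), lay apart from the next, 165 in the infraspinatus.

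PGAM2 varied most among the 8 enzymes, 12.2-fold. It stood at 681 CPM in the triceps brachii, 299.9 in the biceps brachii, 488 in the infraspinatus and 424 in the supraspinatus, against 802 in the semitendinosus, 697 in the gluteus superficialis and 1399, 670 and 587 in the vertebral, middle and caudal parts of the biceps femoris. The ranges of the forelimb and the hindlimb overlapped only through the triceps brachii, which lay above the middle and caudal parts of the biceps femoris, and with library totals they did not overlap (560.2 in the triceps brachii and 578 in the middle part). In the girdle and neck PGAM2 was at 160.2 CPM in the rhomboideus, 245 in the omohyoideus, 144 in the trapezius and 452 in the pectoralis, and in the distal extensors at 114.3 in the extensor digitorum communis, 845 in the extensor carpi radialis, 598.5 in the extensor digitorum longus and 191.6 in the extensor digitorum lateralis. The longissimus had 797 CPM, which fell among the hindlimb values.

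ENO3, muscle enolase, ran from 444 CPM in the rhomboideus through a median of 1636 CPM to 2917 CPM in the biceps femoris vertebral part, 6.57-fold, and the longissimus followed with 2825 CPM. With TMM its 5 lowest muscles lay between 444 and 761 CPM and all others at 1016 CPM or above. With library totals the omohyoideus (1096) lay close to the infraspinatus (1162). PKM, pyruvate kinase of muscle, was at 1325 CPM in the triceps brachii, 728 in the biceps brachii, 733 in the infraspinatus and 1199 in the supraspinatus, and in the hindlimb at 1201 in the semitendinosus, 625.4 in the gluteus superficialis, 1434, 1177 and 992 in the vertebral, middle and caudal parts of the biceps femoris. The forelimb and hindlimb ranges of PKM overlapped throughout, and the gluteus superficialis was below every forelimb muscle with TMM, but above the infraspinatus with library totals (878 and 593). In the girdle and neck it was at 284.9 CPM in the rhomboideus, 472 in the omohyoideus, 300.8 in the trapezius and 869 in the pectoralis, and among the distal extensors at 372 in the extensor digitorum communis, 1853 in the extensor carpi radialis, 1158 in the extensor digitorum longus and 344 in the extensor digitorum lateralis. The highest and the third lowest PKM level thus both came from distal extensors with TMM, whereas with library totals the biceps femoris vertebral part was highest for PKM and for PGK1.

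ALDOC, the brain-type aldolase, was low everywhere and varied most of all, 51.6-fold. It reached 12.5 CPM in the rhomboideus, 2.37 in the omohyoideus, 7.08 in the trapezius and 3.21 in the pectoralis, and 5.94 in the extensor digitorum communis, 0.242 in the extensor carpi radialis, 0.912 in the extensor digitorum longus and 12.4 in the extensor digitorum lateralis. The lowest value rests on 8 reads, with an exact Poisson interval from 0.104 to 0.477 CPM, and lay below all other muscles, as the nearest interval began at 0.631 CPM. Without the extensor carpi radialis, left out after its value was seen, the range of ALDOC was 13.7-fold. ALDOC stood at 1.05 CPM in the triceps brachii, 1.92 in the biceps brachii, 1.30 in the infraspinatus and 2.73 in the supraspinatus, at 1.97 in the semitendinosus, 1.12 in the gluteus superficialis and 3.83, 2.81 and 1.07 in the vertebral, middle and caudal parts of the biceps femoris, and at 1.59 in the longissimus. In 14 of 17 pairs of muscles adjacent in its order the counting intervals overlapped, so the middle of the order is not resolved, whereas the 4 highest muscles lay above all others.

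The order of ALDOC was not a mirror image of ALDOA. The omohyoideus, low for 7 of the 8 enzymes with TMM, was 9th for ALDOC (6th with library totals), and the biceps femoris vertebral part, highest for ALDOA, was 5th for ALDOC with an interval from 3.27 to 4.46 CPM. Within the biceps femoris, ALDOC was 3.59-fold higher in the vertebral than in the caudal part, where ALDOA was 1.53-fold higher. Both aldolases were highest in the vertebral part, although its counting interval for ALDOC overlapped that of the middle part (2.25 to 3.46 CPM).

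PFKL, the liver-type phosphofructokinase, ranged from 6.04 CPM in the triceps brachii through a median of 11.1 CPM to 33.3 CPM in the rhomboideus, 5.51-fold. It was at 27.3 CPM in the trapezius, 26.7 in the extensor digitorum lateralis and 23.3 in the extensor digitorum communis, followed with TMM by the infraspinatus at 18.9 and with library totals by the biceps femoris vertebral part. The same 4 muscles that led for ALDOC led for PFKL, and the omohyoideus, at 11.7 CPM, was 8th (6th with library totals). Counting intervals of PFKL overlapped in 12 of 17 adjacent pairs, but the interval of the infraspinatus (17.4 to 20.5 CPM) lay below those of the 4 leading muscles.

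**Figure D2:**
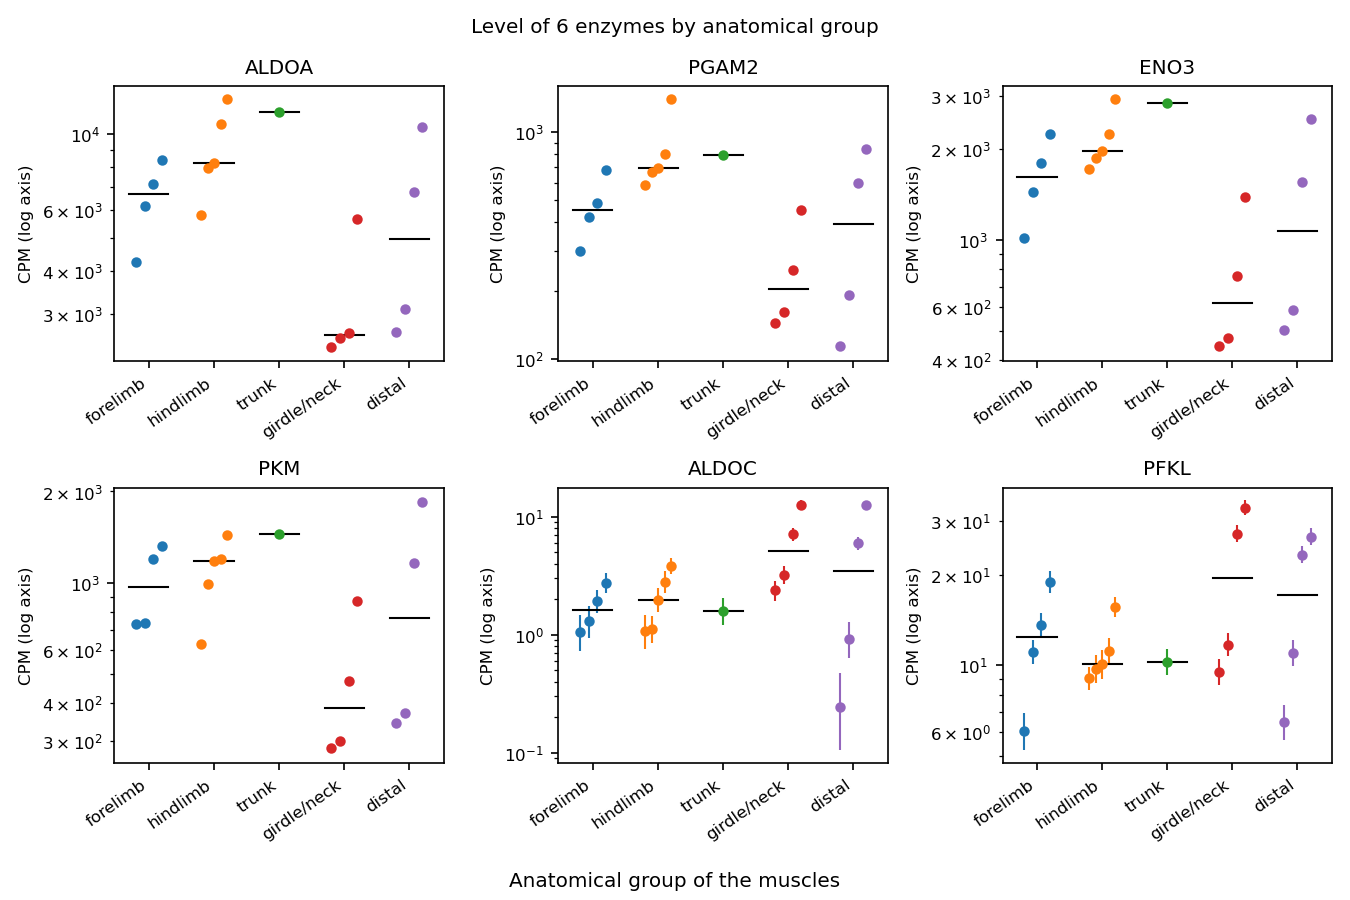
CPM (vertical, log axis) of 6 enzymes in each muscle, grouped by anatomy (horizontal). Points are muscles with 95% Poisson intervals, which are smaller than the point for abundant genes, and black lines are group medians. The distal extensors span from 2662 to 10465 CPM for ALDOA and from 0.242 to 12.4 CPM for ALDOC.

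The share of each minor isoform was computed as its reads of the reads of both isoforms, with no correction for length, so the share is compared between muscles only. ALDOC made up 0.518% of aldolase reads in the rhomboideus (exact binomial 95% interval 0.471% to 0.567%), 0.399% in the extensor digitorum lateralis, 0.275% in the trapezius and 0.223% in the extensor digitorum communis, a median of 0.0327% over all muscles and 0.00231% in the extensor carpi radialis. The share thus varied 224-fold, and 41.3-fold without the extensor carpi radialis, where the triceps brachii was lowest with 0.0126%. PFKL made up 10.3% of phosphofructokinase reads in the rhomboideus (interval 9.74% to 10.8%), 7.95% in the trapezius, 5.92% in the extensor digitorum lateralis and 5.08% in the extensor digitorum communis, with a median of 1.24% and a lowest share of 0.330% in the extensor carpi radialis. By share, the omohyoideus was 5th for ALDOC (0.0897%), with an interval above that of the pectoralis, which came next. For PFKL it was 6th (1.71%), below the infraspinatus (2.16%). Its PFKL interval (1.57% to 1.86%) overlapped that of the biceps brachii (1.35% to 1.62%).

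**Figure D3:**
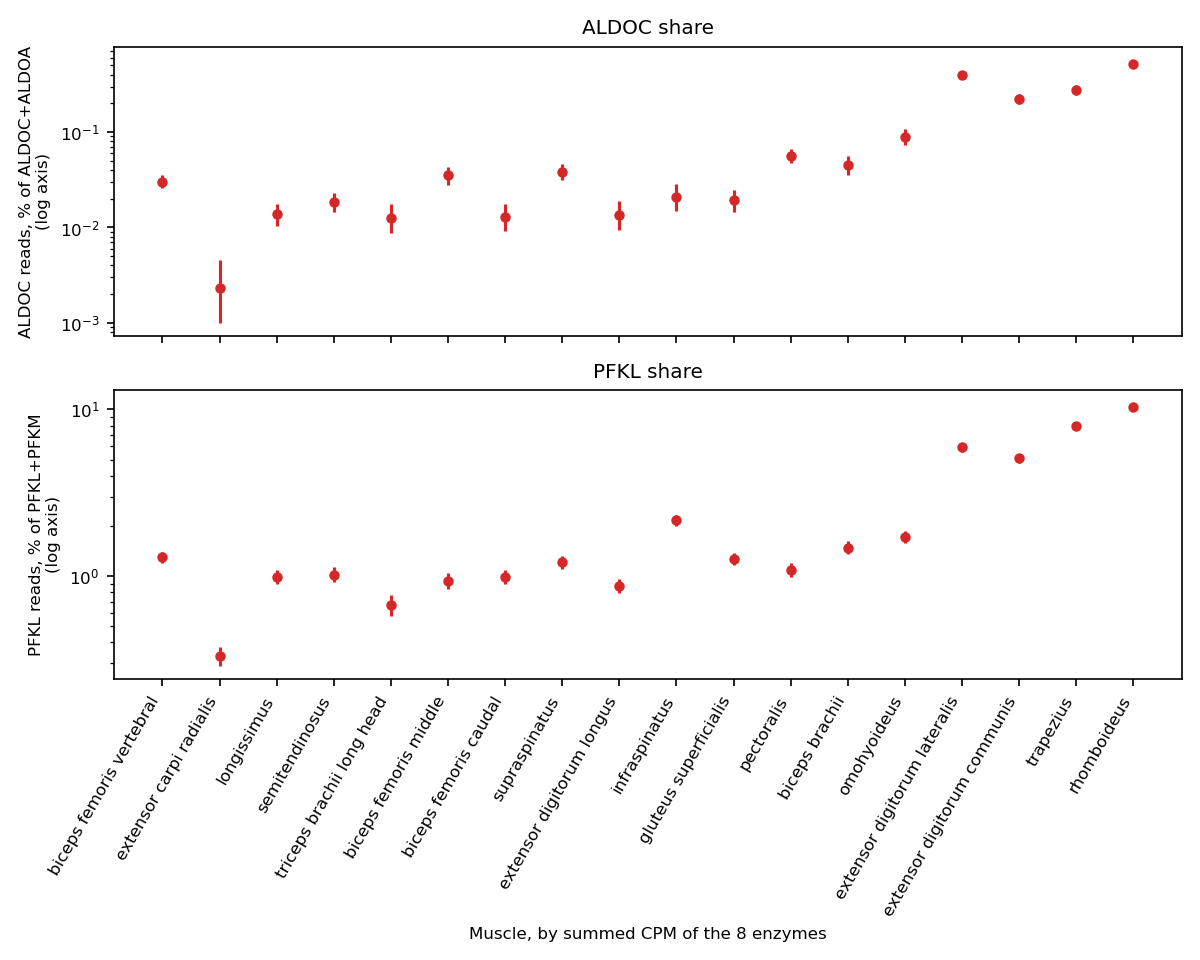
Reads of ALDOC as a percentage of ALDOC and ALDOA reads (upper panel) and of PFKL as a percentage of PFKL and PFKM reads (lower panel), on log axes, in 18 muscles ordered as in the colour map of levels. Bars are exact binomial 95% intervals. The 4 muscles on the right have the highest shares of both, and the extensor carpi radialis the lowest.

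Muscles of 1 anatomical group could differ greatly. The extensor carpi radialis exceeded the extensor digitorum communis from 3.14-fold (GPI) to 7.40-fold (PGAM2) for the 8 enzymes, whereas ALDOC was 24.6-fold and PFKL 3.60-fold higher in the extensor digitorum communis. The extensor digitorum longus exceeded the extensor digitorum lateralis by 2.03-fold (TPI1) to 3.36-fold (PKM) for the 8 enzymes, and ALDOC was 13.6-fold higher in the latter. The trapezius and rhomboideus differed by at most 1.11-fold for the 8 enzymes and by 1.76-fold for ALDOC. Over all 10 enzymes the closest of 153 pairs of muscles were the longissimus and semitendinosus, which differed by a mean of 0.15 on the log2 scale, and the most distant were the rhomboideus and the extensor carpi radialis, with 2.60.

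The 3 parts of the biceps femoris give a view of the spread within 1 muscle. The vertebral part exceeded the middle part by 1.11-fold (PFKM) to 2.09-fold (PGAM2) and the caudal part by 1.06-fold (PFKM) to 2.38-fold (PGAM2) over the 8 enzymes. The middle and caudal parts differed less, from 1.05-fold higher in the caudal part for PFKM to 1.44-fold higher in the middle part for TPI1. With library totals the vertebral part exceeded the middle part by 2.83-fold for PGAM2. With 1 library of each part, these folds also contain technical error.

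The anatomical groups were compared with the quasi-likelihood test of edgeR over all 18 muscles, and a gene was called when its adjusted p was under 0.05 and its log2FC exceeded 0.58 in either direction. In the proximal hindlimb vs. the proximal forelimb, 0 of 10 enzymes were called, beside 0% of all 14770 genes. At an unadjusted p below 0.05 there were 0 enzymes and 1914 genes, and DESeq2 called 63 genes, of which 0 were among the 9 enzymes it gave an adjusted p for. The log2FC was above 0 for 9 of 10 enzymes, with a median of 0.39 against -0.01 for all genes, and PGAM2 had the largest estimate (log2FC 0.81, SE 0.49, adjusted p = 0.480). PKM (0.12, SE 0.45) and PFKM (0.16, SE 0.41) had the smallest positive estimates, and PFKL was at -0.16 (SE 0.41). By this test none of these exceeded the spread between muscles, and without the biceps femoris vertebral part the estimates of PKM (-0.0168) and ALDOC (-0.0601) fell below 0 and the median was 0.25. Without the biceps brachii the median was 0.26.

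In the girdle and neck vs. the proximal forelimb, 0 of 10 enzymes were called, beside 0% of all genes. At an unadjusted p below 0.05 there were 4 enzymes and 1345 genes, and DESeq2 called 12 genes, of which 0 were enzymes. The 4 were ENO3 (log2FC -1.08, SE 0.46, adjusted p = 0.524), PKM (-1.05, SE 0.48, adjusted p = 0.533), ALDOA (-0.97, SE 0.43, adjusted p = 0.531) and, in the other direction, ALDOC (1.83, SE 0.78, adjusted p = 0.524). The median over the 10 enzymes was -0.68 against -0.02 for all genes, and without the pectoralis it was -1.04, with 9 of 10 enzymes at an unadjusted p below 0.05, beside 1177 of 14759 genes (7.97%), and still 0 enzymes called beside 3 genes (0.0203%). Without the triceps brachii, the rhomboideus or the trapezius, 0 enzymes in place of 4 had such a p, with medians of -0.61, -0.51 and -0.54, and without the supraspinatus or the omohyoideus 1 enzyme did, beside 956 to 1347 genes in these 5 fits. Because most of the enzymes rose and fell together, these counts of enzymes are not counts of independent results. This comparison shares its forelimb muscles with the previous one.

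In the distal limb extensors vs. the proximal limb (the mean of forelimb and hindlimb groups), 0 of 10 enzymes were called, beside 11.1% of all genes, with 919 genes (6.22%) higher and 726 (4.92%) lower in the distal muscles. At an unadjusted p below 0.05 there were 1 enzyme, ALDOC (log2FC 1.33, SE 0.62, adjusted p = 0.151), and 4577 genes, and DESeq2 called 1872 genes, of which 0 were enzymes. The other estimates lay between -0.53 (ENO3, SE 0.40) and 0.52 (PFKL, SE 0.36), and the median was -0.17. The distal group holds the extensor carpi radialis, among the highest muscles for the 8 enzymes, the extensor digitorum longus, among the lowest 5 for 0 of the 8, and the extensor digitorum communis and lateralis, among the lowest 5 for all 8. Without the extensor carpi radialis the median was -0.62, 5 enzymes had an unadjusted p below 0.05 and ALDOC was called (log2FC 1.72, adjusted p = 0.0402). In that fit 4423 of 14756 genes had such a p and 1762 (11.9%) were called, so that 1 call among 10 enzymes was near the share of all genes. Without the extensor digitorum communis or the extensor digitorum lateralis the median was 0.05 or 0.06, with 6 of 10 enzymes above 0 in each case. Without the extensor digitorum lateralis the log2FC of ALDOC was 0.30 and 733 genes were called in place of 1645.

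**Figure D4:**
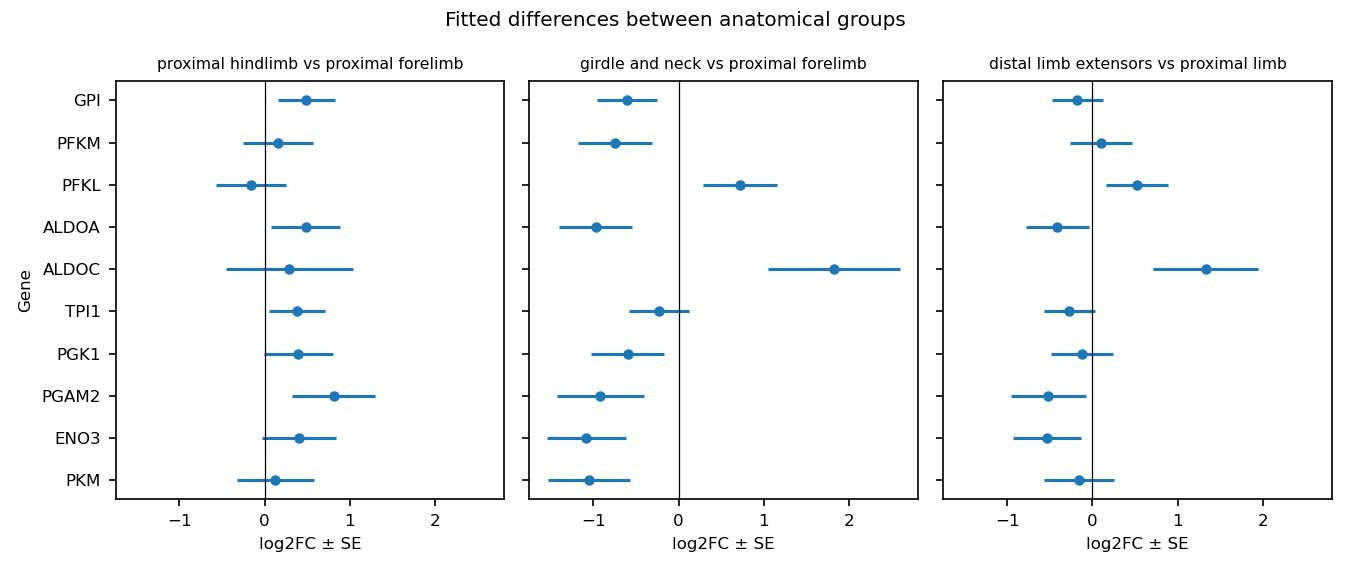
Fitted log2FC with SE (horizontal) of the 10 enzymes (vertical) in 3 comparisons of anatomical groups. Values above 0 mean a higher level in the group named first. No enzyme was called, and ALDOC has the widest errors, from 0.62 to 0.78.

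Similar levels across muscles were also described by correlation of log2(CPM + 0.1) over the 18 muscles, which share 1 animal and a common scaling and get no p-value. Over the 28 pairs of the 8 enzymes the mean Pearson r was 0.93, from 0.83 (PFKM with TPI1) to 0.98 (ALDOA with ENO3). PGK1 had the highest mean r with the other 7 (0.96) and PFKM the lowest (0.89). ALDOC correlated with the 8 at a mean r of -0.70, from -0.82 (PFKM, rho -0.63) to -0.59 (TPI1, rho -0.44), and PFKL at a mean of -0.75. ALDOC and PFKL were set apart from the 8 because they ran against them in these same libraries. These means therefore follow in part from that choice. ALDOC and PFKL had an r of 0.84 (rho 0.71), and 0.76 without the rhomboideus and the extensor carpi radialis, which lie farthest out for ALDOC.

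In the rhomboideus, trapezius, omohyoideus, extensor digitorum communis and extensor digitorum lateralis, MYH1, the myosin heavy chain of fast 2X fibres, lay below 500 CPM, from 134 to 481 CPM, while it ran from 2332 to 28709 CPM in the other 13. Because MYH1 splits the muscles in this way, a choice made after its values were seen, relations with it are given over the 13 muscles only. This leaves out the 5 lowest muscles for 7 of the 8 enzymes with TMM and the 4 highest for ALDOC and PFKL, so it narrows the range of both, and the values below describe the 13 muscles only. Over these 13, the mean r among the 8 enzymes was 0.79, while ALDOC had a mean r of -0.13 with them, from -0.47 to 0.12, and PFKL one of -0.20. With library totals these means were 0.07 for both ALDOC and PFKL, so that over the 13 muscles the sign depended on the scaling. Without the omohyoideus alone the mean r of ALDOC over 17 muscles was -0.71. ALDOC and PFKL had an r of 0.52 over the 13 muscles.

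Over the same 13 muscles MYH1 correlated with PKM at r = 0.70 (rho 0.77), with PGK1 at 0.67 (rho 0.72), with ALDOA at 0.67 (rho 0.74) and with PGAM2 at 0.35 (rho 0.48). With library totals in place of TMM these r were lower, at 0.58, 0.52, 0.54 and 0.25. With TMM, leaving out the gluteus superficialis and the extensor digitorum longus, which lie farthest out for MYH1, gave r = 0.86, 0.91, 0.77 and 0.62. These muscles had the lowest MYH1 of the 13, at 2565 and 2332 CPM, but the extensor digitorum longus was the lowest of them for none of the 8 enzymes, and the gluteus superficialis only for PKM and PFKM with TMM and for none with library totals. The extensor digitorum longus was among the highest 5 muscles for PFKM with either scaling. The gluteus superficialis was among them for PGAM2 with TMM, and with library totals also for ENO3, GPI, PGK1 and TPI1. ALDOC had an r of -0.02 with MYH1 over the 13 muscles, and -0.41 without these 2.

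**Figure D5:**
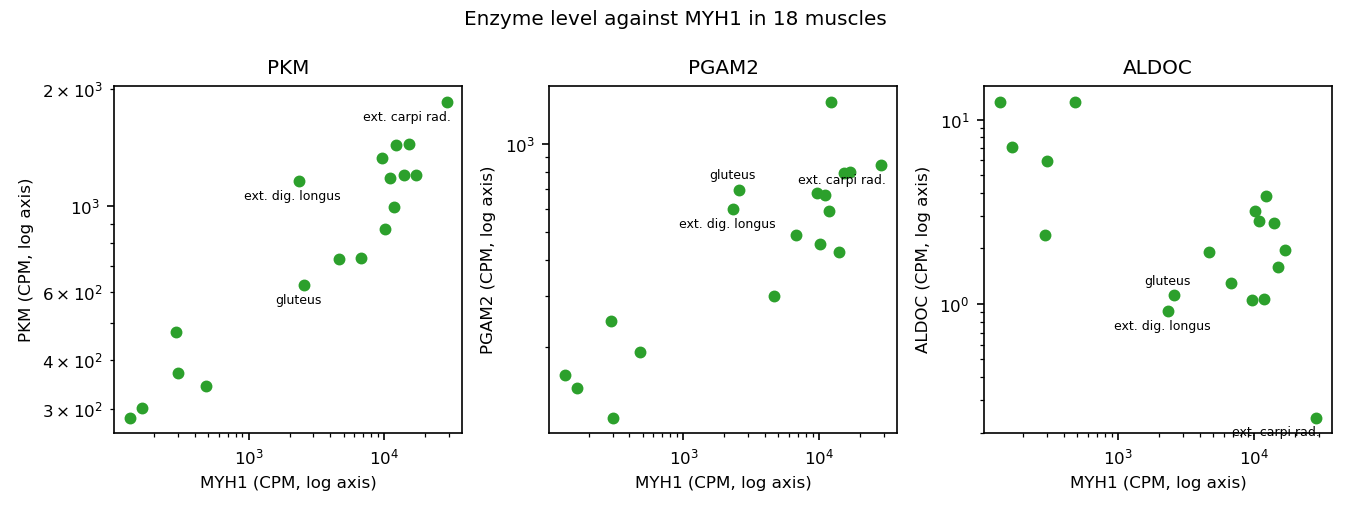
CPM of PKM, PGAM2 and ALDOC (vertical, log axes) against CPM of MYH1 (horizontal, log axis). Points are the 18 muscles. With this TMM scaling the 5 muscles with MYH1 at or below 481 CPM are the lowest for PKM and PGAM2, and 4 of them are the highest for ALDOC.

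MYH7, the myosin heavy chain of slow fibres, ran from 881 CPM in the extensor carpi radialis to 26283 CPM in the trapezius. With TMM its 4 highest muscles, the trapezius, rhomboideus, extensor digitorum communis and extensor digitorum lateralis, were also the 4 highest for ALDOC and for PFKL, whereas with library totals the omohyoideus and supraspinatus exceeded the extensor digitorum lateralis for MYH7. Over 18 muscles it correlated with the 8 enzymes at a mean r of -0.70, with ALDOC at 0.72 (rho 0.66) and with PFKL at 0.68 (rho 0.73). Without the biceps femoris vertebral part and the extensor carpi radialis, which lie farthest out for MYH7, the r was 0.79 for ALDOC and 0.84 for PFKL. Over the 13 muscles above the gap in MYH1, MYH7 had a mean r of -0.50 with the 8 enzymes, 0.55 with ALDOC and 0.42 with PFKL, and with library totals these were -0.49, 0.57 and 0.42.

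Ratios between enzymes showed how tightly they kept together. The read ratio of GPI to PGK1 had the smallest spread of the 28 pairs, with an SD of 0.19 on the log2 scale, followed by ALDOA to ENO3 with 0.20, which stayed between 3.39 in the gluteus superficialis and 5.42 in the trapezius. The ratio of PFKM to PGAM2 had the largest SD, 0.55, and went from 0.845 in the biceps femoris vertebral part and 1.01 in the gluteus superficialis to 3.804 in the extensor digitorum communis. Enzymes at different steps of the pathway were therefore not in fixed proportion over the muscles.

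Among 14769 other genes ranked by r over the 18 muscles, the enzymes were often among each other's nearest. For PGAM2, ENO3 was 3rd (r = 0.97) and ALDOA 6th (0.95), and the fast troponins TNNT3 and TNNI2 were 12th and 13th (0.94 each). Some genes that the study listed under oxidative phosphorylation followed for PGAM2, with NDUFA8 87th, COX7A1 90th (0.84 each), NDUFS8 112th (0.82) and UQCR11 135th (0.81). Others of that list, COX5A, COX4I1, NDUFS7, NDUFV1 and MT-ND4L, were not among its 200 nearest. Such genes were not particular to PGAM2, as NDUFA8 was 46th and UQCR11 78th for TPI1, and UQCR11 103rd for ALDOA. For PKM none of them was among the 200 nearest. For PKM, PGK1 was 2nd (0.97) and MYBPC2, the myosin binding protein of fast fibres, 11th (0.93). For ALDOC, PFKL was 12th (0.84), TNNT1, the slow troponin T, 24th (0.80) and MYH7 106th (0.72). The nearest genes of all carry no name in the table, and were ENSECAG00000008111 for PGAM2 (0.98), ENSECAG00000020669 for PKM (0.98), ENSECAG00000013979 for ALDOC (0.91) and ENSECAG00000018308 for PFKL (0.89).

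The clusters that the study formed from these counts are described without a test. In its cluster A2 (rhomboideus, trapezius and extensor digitorum communis) PGAM2 lay between 114.3 and 160.2 CPM, and in A1 (triceps brachii, infraspinatus, supraspinatus and longissimus) between 424 and 797 CPM, with no overlap. ALDOC lay between 5.94 and 12.5 CPM in A2 and between 1.05 and 2.73 CPM in A1. In cluster B2 the omohyoideus and the extensor digitorum lateralis were far apart for ALDOC (2.37 and 12.4 CPM). Between the main clusters the enzymes overlapped widely, with PKM from 284.9 to 1447 CPM in A and from 344 to 1853 CPM in B.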

How the data were processed

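The authors removed ribosomal RNA, trimmed reads with NGSQCToolkit, aligned them with STAR 2.5.2b in 2 passes to EquCab2, and deposited whole-number counts per Ensembl gene for 18 muscles without normalization. The paper has the counts come from the alignment, and the counting option, the strand setting and the treatment of reads that fit several genes are not given in the sources used here. The members and gene lists were chosen with earlier results of these data known.

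Counts were scaled by TMM and tested with edgeR 4.0.16 (glmQLFit and glmQLFTest) in R 4.3.3 after filterByExpr over 5 anatomical groups, in 3 comparisons with Benjamini-Hochberg adjustment over 14770 genes. The thresholds were an adjusted p of 0.05 and an absolute log2FC of 0.58. DESeq2 1.42.0 was an alternative. The fits were tested on simulated data. Named genes were the 10 members, MYH1, MYH7 and the genes nearest to ALDOC, PFKL, PGAM2 and PKM by r, of which 1 identifier each is given. Other named genes among the nearest come from the heatmap of the study, which gave 41 names in all, 29 of them matched over 4 muscles. The 7 lists of related pathways, 79 genes, had no named identifier and were not tested, nor were cell type markers. Intervals were exact (95%) and cover counting error only. The muscle labelled Pectoralis major, called Pectoralis ascendens on the study's map, is written pectoralis. Tables and plots used Python 3.11.15, numpy 2.4.6, scipy 1.17.1, pandas 2.3.3 and matplotlib 3.10.9.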

Additional observations from a re-analysis of the deposited data

Results flagged for a closer look

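Of 40 combinations of an enzyme with an anatomical group of 4 or 5 muscles, 1 held a muscle far from the others by Dixon's criterion, and chance gives about 1 in 20. This was ALDOA in the girdle and neck, where the pectoralis stood at 5654 CPM and the gap to the next muscle was 0.891 of the range of the group on the log2 scale, on which the criterion was applied.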

How the results depend on the processing

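No paired analysis was possible because replicate numbers only name different muscles of 1 animal. Over 8 other settings (DESeq2 size factors, the DESeq2 Wald test, low counts left unfiltered, a minimum of 10 reads in each library, only the groups compared, the distal group split by limb, the biceps femoris as 1 muscle, and a robust fit), the 30 log2FC of enzymes gave 237 values, all with the direction given above and 0 called. ALDOC could not be fitted with that minimum. The number of genes called rose from 0 to 63 (DESeq2), 10 (only the groups compared) and 2 (distal group split) in the hindlimb, and from 0 to 12 (DESeq2) and 1 (only the groups compared) in the girdle and neck, with no enzyme among them. The cause was not tested.

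Leaving out each muscle in turn gave 540 values, of which 12 changed direction and 1 was called. Genes called ranged from 0 to 3 in the girdle and neck (3 without the pectoralis, 1 without the extensor digitorum lateralis) and from 733 to 1855 in the distal extensors. Enzymes called in the distal extensors ranged from 0 to 1 and their median from -0.62 to 0.0564. In the same comparison the log2FC ranged from -0.54 to 0.0185 for GPI, from -0.43 to 0.35 for PFKM, from -0.67 to 0.14 for PGK1 and from -0.74 to 0.12 for PKM, and in the hindlimb from -0.0601 to 0.59 for ALDOC, from -0.38 to 0.12 for PFKL and from -0.0168 to 0.29 for PKM. These 7 estimates changed direction when a muscle was left out. The others kept theirs, but as no enzyme was called with all muscles, their direction is not settled either.

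With Spearman's rho, the mean among the 8 enzymes was 0.91, that of ALDOC with them -0.54, that of PFKL -0.63, and ALDOC with PFKL gave 0.71. With only the muscles above the gap in MYH1, chosen after seeing the data, the corresponding r were 0.79, -0.13, -0.20 and 0.52, and with library totals as well 0.81, 0.0731, 0.0671 and 0.62. Scaling by library totals instead of TMM left the highest and lowest muscle of ALDOC, PFKL, PGAM2 and TPI1 in place, while for ALDOA, ENO3, GPI, PFKM and PGK1 the lowest became the trapezius and for PKM the extensor digitorum lateralis, and the highest of PGK1 and PKM became the biceps femoris vertebral part. The omohyoideus and the gluteus superficialis moved up in many orders, as given above. Counting intervals of adjacent muscles overlapped in 14 of 17 pairs for ALDOC, 12 for PFKL and 1 to 6 for the others.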
